A study of Mus musculus with 8 samples.

Results

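The 7 windows described here are stretches of the mouse genome of 18.7 to 66.1 kb in which small RNA fragments listed under piRNA names lie close together. A fragment belonged to a window when its start and end lay inside it, and each piRNA name was used once. This gave 201 names of 20210 in the series: 133 of the 13450 names in the table that compares MC-LR with control, 72 of the 17375 names in the table that compares the Hsp90aa1 shRNA with a negative-control shRNA, and 4 names in both. The windows had been picked from the MC-LR table, as groups of at least 10 tested names, each within 10 kb of the next, of which a share of at least 50% was higher with MC-LR. The levels of the MC-LR and control libraries are therefore a description of the chosen stretches, with no test. The Hsp90aa1 shRNA and negative-control shRNA libraries were not used to choose them. Between 91.7% and 100% of the tested names in each window were higher with MC-LR, and the next group of names in that order, at chr5:114845989-114852878, stood at 13.6% (3 of 22 names). Just under the limit on the number of names lay chr7:69902352-69919884, with 9 of 9 names higher.

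All libraries were made from total RNA of sperm of Balb/c mice 8 months old. The 4 groups were sperm labelled MC-LR, sperm labelled control, sperm labelled with an shRNA against Hsp90aa1, and sperm labelled with a negative-control shRNA, with 2 libraries each, lettered A and B. MC-LR is microcystin-LR, a toxin of cyanobacteria that inhibits the protein phosphatases PP1 and PP2A. Hsp90aa1 encodes the inducible cytosolic chaperone HSP90 alpha, and an shRNA is a short hairpin RNA that lowers the messenger RNA it matches. The dose of MC-LR, how the shRNA was delivered and whether A and B came from separate animals are not in the labels used here, so a p-value here sets a difference against the spread of these libraries alone, part or all of which can be technical. Hsp90aa1 messenger RNA has no value in tables of small RNA, so neither the knockdown nor the sperm label could be checked on marker genes. In bulk sperm RNA, fewer cells of a type and less RNA per cell cannot be told apart.

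piRNAs are germline small RNAs, somewhat longer than microRNAs, that guide PIWI proteins. In the mouse testis most piRNAs of the pachytene stage are cut from long single-stranded precursors, and many of their source loci are divergent: a shared promoter region transcribes 1 precursor to the left on the minus strand and 1 to the right on the plus strand, under the transcription factor A-MYB. The cut that makes the first end of a pachytene piRNA favours a U at that end, and the PIWI proteins MILI and MIWI hold fragments of characteristic lengths.

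Values are RPM, the reads of a name per library total, and the totals recovered from the values were 4960467 to 14634370 reads. A count of 3 reads equals 0.205 to 0.605 RPM, depending on the library. Names with a small difference were nearly missing from both tables on the higher side, and from the shRNA table on the lower side too. In the MC-LR table the smallest log2 ratio of group means among names higher with MC-LR was 0.89 and the next 3.36, while lower names came as near to 0 as −0.24. In the shRNA table no name lay between −0.95 and 2.24. A window name that is missing from a table may therefore have had a small difference, and was not analysed there. The listed names summed to 12.5% and 11.7% of the library total in the MC-LR libraries and 38.1% and 35.3% in the control libraries, and to 4.98% and 3.18% with the Hsp90aa1 shRNA and 27.8% and 32.5% with the negative-control shRNA. Window values scaled within the list are given below where they change a direction.

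The letters of window fragments could be read where they lie in an annotated transcript. The sequences below show the most abundant window fragment with MC-LR, its longer form, the leading fragment of the host transcript Gm21221, and a pair of forms with the same 5′ end of which 1 is listed in each table. The capital marks the first base, and letters were read from GENCODE M21 transcripts of GRCm38.
piR-mmu-2597977, Gm49794 exon, chr17:27356495-27356523, plus strand: Tgattagatgaatatggtgatgtggctga
piR-mmu-15832, Gm49794 exon, chr17:27356495-27356525, plus strand: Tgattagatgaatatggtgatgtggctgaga
piR-mmu-2630260, Gm21221 exon, chr5:149804964-149804993, minus strand: Tgtgaattgccagagcagccaaggacctga
piR-mmu-50195758, MC-LR table, Gm21221 exon, chr5:149803558-149803583, minus strand: Tgctagatctactgagaaaaaccttt
piR-mmu-51220004, shRNA table, Gm21221 exon, chr5:149803556-149803583, minus strand: Tgctagatctactgagaaaaaccttttt
All 14 window fragments that could be read began with T in DNA letters, a U in the RNA, and 0 of them had an A at base 10. Of all names that could be read, 29.3% in the MC-LR table (2051 of 7006) and 28.8% in the shRNA table (2338 of 8129) began with T. The 14 come from 4 transcripts and several overlap, so the share is a description of those transcripts.

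In the MC-LR table, from which they were picked, the windows were strongly ordered by strand. All 133 names followed at most 1 change of strand per window. In the 5 windows with names on both strands, the minus strand names lay on the left and the plus strand names on the right. This is the layout of a divergent locus, though in the chr18 window and the second chr5 window 1 arm rests on a single 5′ end. The chr17 window (chr17:27292140-27358271) had 24 minus strand names, then 6.13 kb without a name, then 20 plus strand names. The chr9 window (chr9:67698367-67749737) had 15 and 4 around 6.52 kb, and the chr18 window (chr18:67039743-67073689) 14 and 1 around 9.66 kb. That plus strand name of the chr18 window, piR-mmu-2993113, lies in an exon of AC140207.2, a long noncoding RNA gene on the plus strand. In the chr6 window (chr6:127785862-127805324) 7 and 6 names stood around 2.26 kb, and in the second chr5 window (chr5:113337817-113356536) 2 and 8 around 3.77 kb. The 2 minus strand names of the second chr5 window share a 5′ end. The other two windows used a single strand: plus for all 20 names of the chr2 window (chr2:92542029-92582152) and minus for all 12 of the Gm21221 window on chr5 (chr5:149801387-149824796). The strand that a stretch uses in the MC-LR table is called its window strand from here on. That definition was made after the positions were seen. The shRNA table also lists names on the opposite strand, in the chr17, chr2, chr9 and chr6 windows.

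**Figure D1:**
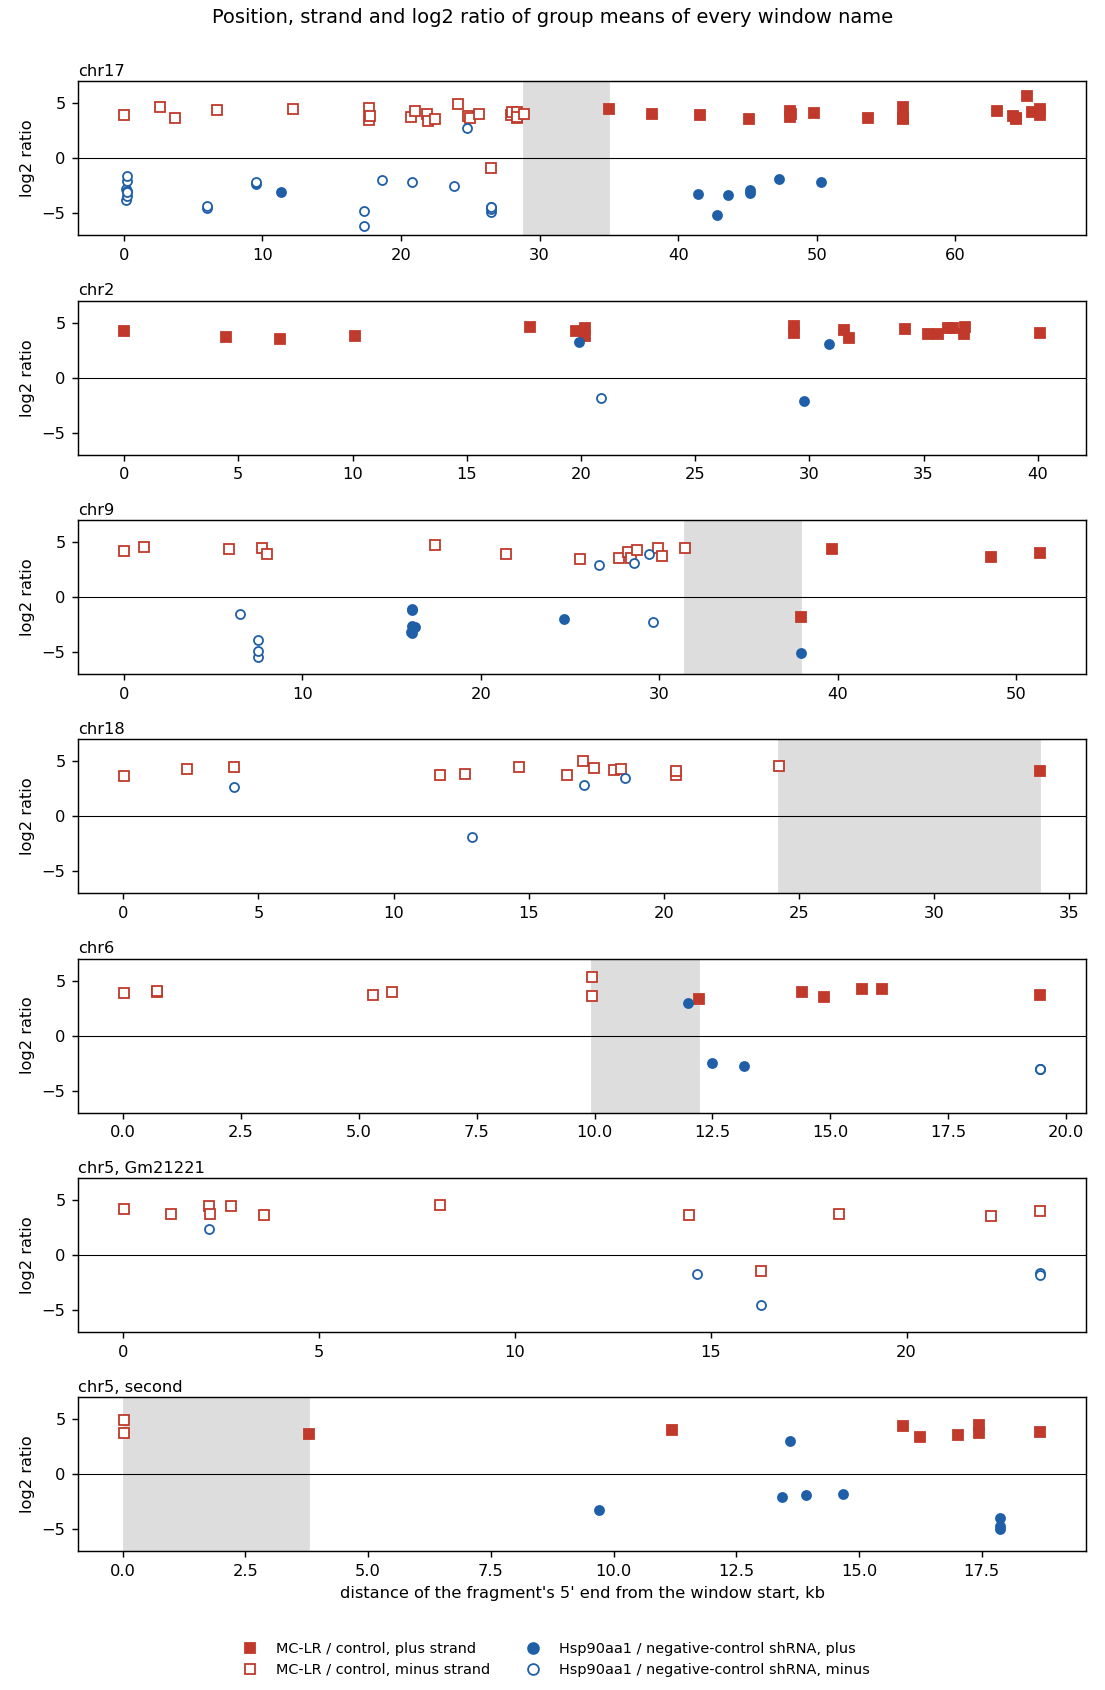
Each panel is a window. The horizontal axis gives the distance of a fragment's 5′ end from the window start in kb, and the vertical axis the log2 ratio of group means, MC-LR over control (red squares) or Hsp90aa1 shRNA over negative-control shRNA (blue circles), with filled symbols for the plus strand and open ones for the minus strand. Grey marks the stretch without names between both strands in the MC-LR table. Of the 133 red squares 130 are above 0, while the blue circles stand on both sides, 12 above and 60 below.

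Of the 5 gaps between strands, that of chr17 alone held a promoter of the RefSeq table. The first of the promoters that RefSeq (GRCm38.p6) gives for Gm10505, a noncoding gene on the plus strand, covers chr17:27324946-27325245 and lies inside the 6.13 kb without names. It is shown because its start lies at the change of strand, with its single match to a MYB-type motif in capitals.
Gm10505 promoter, plus strand: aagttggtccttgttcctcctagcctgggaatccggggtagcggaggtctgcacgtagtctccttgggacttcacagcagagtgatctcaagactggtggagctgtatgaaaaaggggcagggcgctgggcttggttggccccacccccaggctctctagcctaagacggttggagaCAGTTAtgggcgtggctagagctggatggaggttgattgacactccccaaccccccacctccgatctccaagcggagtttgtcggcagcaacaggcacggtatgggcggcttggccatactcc
Searches on both strands were made for TAACGG, for the related motif TAACTG, for its relative CAACGG, and for the last form CAACTG, and no matches overlap here. The match reads TAACTG on the other strand, a motif that 10.1% of 32851 promoters of this length hold, and 28.3% hold any of the 4. The second Gm10505 promoter, at chr17:27342210-27342509 and outside the gap, held a match to CAACTG. The Gm21221 promoter, whose start lies inside its own window at chr5:149811702-149812001, held no match.

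The chr17 window was the largest and the most abundant. Its 44 names summed to 616 and 496 RPM with MC-LR, against 38.0 and 55.0 RPM in control, 11.95-fold higher in the means. Every MC-LR library was above every control library. On the right arm, Gm49794, a long noncoding RNA gene on the plus strand at chr17:27354111-27367492, held 8 names, all of them in its exons, in the sense direction and higher in both MC-LR libraries. These 8 summed to 273 and 192 RPM with MC-LR against 12.7 and 22.98 RPM in control, and made up 41.8% of the window's mean level with MC-LR. piR-mmu-2597977 alone stood at 180 and 116 RPM with MC-LR against 8.68 and 16.1 RPM in control. Its form with 2 more bases, piR-mmu-15832, had 45.8 and 37.3 RPM with MC-LR against 1.57 and 5.04 RPM in control. The groups of both forms lie far apart. piR-mmu-117350, of 30 nt and outside annotated exons, was second in the window. It had 59.8 and 54.4 RPM with MC-LR against 3.83 and 5.85 RPM in control.

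Other transcripts of the chr17 window gave names from introns only. Gm10505, on the right arm, held 8 names in the MC-LR table and 7 in the shRNA table, and Gm49793, a noncoding gene on the minus strand of the left arm, held 13 and 10, all in the sense direction and none of them in an exon. 1 of the Gm49793 names, piR-mmu-5230046 (chr17:27317064-27317090), lies whole inside the annotated hairpin of the microRNA gene Mir7214. In the RefSeq hairpin below, capitals mark the piRNA.
Mir7214 hairpin, minus strand: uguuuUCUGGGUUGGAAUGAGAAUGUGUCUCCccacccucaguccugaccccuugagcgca
It overlaps the annotated mature miR-7214-3p by 0 bases. Its level was 8.42 and 9.91 RPM with MC-LR against 0.410 and 1.01 RPM in control. In all, 7 annotated microRNA hairpins lie inside the windows, 4 in the chr17, 2 in the chr9 and 1 in the chr6 window.

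In the shRNA table the chr17 window is made up of other names, with only piR-mmu-50430680 listed in both tables. The 29 names there summed to 39.1 and 14.96 RPM with the Hsp90aa1 shRNA against 256 and 387 RPM with the negative-control shRNA. That is 11.9-fold lower, and none of the 29 lay in Gm49794. Most of this level came from fragments of 18 to 24 nt. All listed names together fell as well, from 27.8% and 32.5% of the library total with the negative-control shRNA to 4.98% and 3.18%. Of the listed names, 17338 of 17375 were lower. piR-mmu-48956331, of 21 nt in Gm49793, had 6.96 and 1.2 RPM with the Hsp90aa1 shRNA against 84.4 and 118 RPM with the negative-control shRNA. piR-mmu-45678294, also of 21 nt, had 1.05 and 0.369 RPM against 35.9 and 63.1 RPM. Both groups of libraries are separate for these names, and both fell (log2 fold change −4.59 with limma adjusted p = 6.07e-04 for the first name, and −4.86 with limma adjusted p = 5.70e-04 for the second). A single name of the window rose, piR-mmu-3602972 of 31 nt in Gm49793, with 3.74 and 4.89 RPM with the Hsp90aa1 shRNA against 0.618 and 0.673 RPM with the negative-control shRNA (log2 fold change 1.68 ± 0.32 SE, limma adjusted p = 0.00115).

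The Gm21221 window on chr5 follows a noncoding gene of the minus strand, Gm21221 at chr5:149801990-149811751. Its 12 names in the MC-LR table summed to 131 and 109 RPM with MC-LR against 11.2 and 11.7 RPM in control, 10.5-fold higher. Of these, 6 lay inside Gm21221, all in the sense direction, 3 in exons and 3 in introns. The exon names summed to 49.8 and 40.2 RPM with MC-LR against 3.14 and 3.43 RPM in control, 13.7-fold higher, and were led by piR-mmu-2630260 with 29.3 and 26.2 RPM with MC-LR against 2.05 and 2.42 RPM in control. Outside the gene, piR-mmu-2830514 had 23.4 and 17.7 RPM with MC-LR against 1.16 and 2.22 RPM in control. Both stand about equally far from their controls, 12.4-fold and 12.2-fold higher.

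With the Hsp90aa1 shRNA the same window held 1 higher and 4 lower names. The higher one was the Gm21221 exon name piR-mmu-51220004, of 28 nt, with 9.95 and 13.2 RPM with the Hsp90aa1 shRNA against 2.16 and 2.24 RPM with the negative-control shRNA (log2 fold change 1.96 ± 0.42 SE, limma adjusted p = 0.00174). Its 5′ end is that of piR-mmu-50195758, the form of 26 nt listed in the other table, which had 10.3 and 7.32 RPM with MC-LR against 0.615 and 0.202 RPM in control. In control B that is 1 read. The whole window summed to 13.5 and 14.6 RPM with the Hsp90aa1 shRNA against 12.2 and 17.3 RPM with the negative-control shRNA, groups that overlap, and the ratio of 0.954 became 1.15 without negative-control shRNA B.

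The chr2 window, on the plus strand, had 20 names that summed to 155 and 126 RPM with MC-LR against 7.86 and 10.5 RPM in control. They were led by piR-mmu-24630, with 25.4 and 19.7 RPM with MC-LR against 2.05 and 1.41 RPM in control, and by piR-mmu-122989, with 17.8 and 21.8 RPM against 1.37 and 2.02 RPM. None of the 20 lay inside an exon of a GENCODE M21 transcript. Among its shRNA names, a pair of long plus strand ones rose, piR-mmu-1205908 and piR-mmu-2608256. The single minus strand name, piR-mmu-2148315 of 29 nt, fell, with 1.95 and 1.66 RPM with the Hsp90aa1 shRNA against 7.93 and 4.86 RPM with the negative-control shRNA (log2 fold change −1.37, limma adjusted p = 0.00756; adjusted p = 0.0802 without negative-control shRNA A). In this window, long fragments of opposite strands thus moved in opposite directions per library total. After median centring within the list, the log2 fold change of piR-mmu-2148315 turned to 0.47.

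In the chr9 window both length and strand differed between higher and lower names. In the MC-LR table its 19 names summed to 127 and 125 RPM with MC-LR against 11.0 and 13.5 RPM in control, led by piR-mmu-131411 with 14.1 and 18.7 RPM against 0.957 and 2.02 RPM. With the Hsp90aa1 shRNA, 3 minus strand names of the left arm, piR-mmu-113100, piR-mmu-56606764 and piR-mmu-56103462, of 30 or 31 nt, rose. On that same arm 7 plus strand names were lower, of which 4 were 19 to 21 nt long and 3 were 27 or 28 nt long, and 5 minus strand names of 21 to 24 nt were lower too. Among the 7 were the abundant piR-mmu-49311127 of 19 nt, with 9.95 and 3.60 RPM with the Hsp90aa1 shRNA against 34.3 and 91.0 RPM with the negative-control shRNA, and piR-mmu-48710840 of 28 nt, which starts at the base after it. The longer one had 10.1 and 11.5 RPM with the Hsp90aa1 shRNA against 29.2 and 21.3 RPM with the negative-control shRNA and did not pass the test (log2 fold change −1.14, limma adjusted p = 0.0537). It was the single tested window name that did not. Among the 5, piR-mmu-49648718 of 23 nt had 1.1975 and 0.277 RPM with the Hsp90aa1 shRNA against 21.7 and 22.6 RPM with the negative-control shRNA and fell by 3.79 on the log2 scale.

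Per library total, the chr18 window was the only one of the 7 whose sum was higher in both comparisons; scaled within the list, the sums of all but the chr17 window were higher with the Hsp90aa1 shRNA. Its 15 names summed to 99.3 and 76.4 RPM with MC-LR against 4.37 and 5.85 RPM in control, 17.2-fold higher. piR-mmu-169973 and piR-mmu-1263422, of 31 and 25 nt, share a 5′ end and led it. piR-mmu-169973 had 10.6 and 9.6 RPM with MC-LR against 0.478 and 1.01 RPM in control, and piR-mmu-1263422 had 9.76 and 9.15 RPM against 0.888 and 0.202 RPM, so both forms were higher here. The 4 names of the window in the shRNA table summed to 16.99 and 15.6 RPM with the Hsp90aa1 shRNA against 4.94 and 7.62 RPM with the negative-control shRNA, 2.59-fold higher. Of the 4, piR-mmu-63450141, piR-mmu-25191 and piR-mmu-2332410, of 28, 31 and 31 nt, rose, and piR-mmu-49305627, of 19 nt, fell (log2 fold change −1.26, limma adjusted p = 0.0159). The call on the short name was lost without Hsp90aa1 shRNA B (adjusted p = 0.129) and without negative-control shRNA B (adjusted p = 0.0792).

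In the chr6 window 13 names summed to 147 and 123 RPM with MC-LR against 6.35 and 13.9 RPM in control, led by piR-mmu-2587745 with 31.0 and 20.6 RPM against 1.91 and 2.62 RPM, and by piR-mmu-2633634. Without control B the 13.3-fold ratio of this window became 21.2-fold. In the shRNA table piR-mmu-182730, of 29 nt on the plus strand, rose, with 2.99 and 3.14 RPM with the Hsp90aa1 shRNA against 0.412 and 0.374 RPM with the negative-control shRNA (log2 fold change 1.55 ± 0.28 SE, limma adjusted p = 9.30e-04). It starts inside the stretch without names of the MC-LR table, just left of the first plus strand name there, and so narrows the gap. The other 5 names of the window, of 18 to 26 nt, were lower.

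The second chr5 window had 10 names that summed to 78.8 and 77.3 RPM with MC-LR against 3.76 and 7.66 RPM in control, 13.7-fold higher (20.8-fold without control B). piR-mmu-11967 and piR-mmu-2613539 led it. piR-mmu-2613539 is also listed at 2 other loci, so its reads may come from elsewhere. With the Hsp90aa1 shRNA piR-mmu-124194, of 31 nt, rose, with 4.86 and 6.46 RPM with the Hsp90aa1 shRNA against 0.824 and 0.598 RPM with the negative-control shRNA. The other 7 names, of 18 to 25 nt, were lower. Among them piR-mmu-49635135 and piR-mmu-49779352, of 19 and 24 nt, share a 5′ end and are listed at 2 loci each. piR-mmu-49635135 had 0.599 and 0.0923 RPM with the Hsp90aa1 shRNA against 6.59 and 14.9 RPM with the negative-control shRNA. The ratio of the window sums, 0.304 over all names, was 0.778 over names with 1 listed locus.

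**Figure D2:**
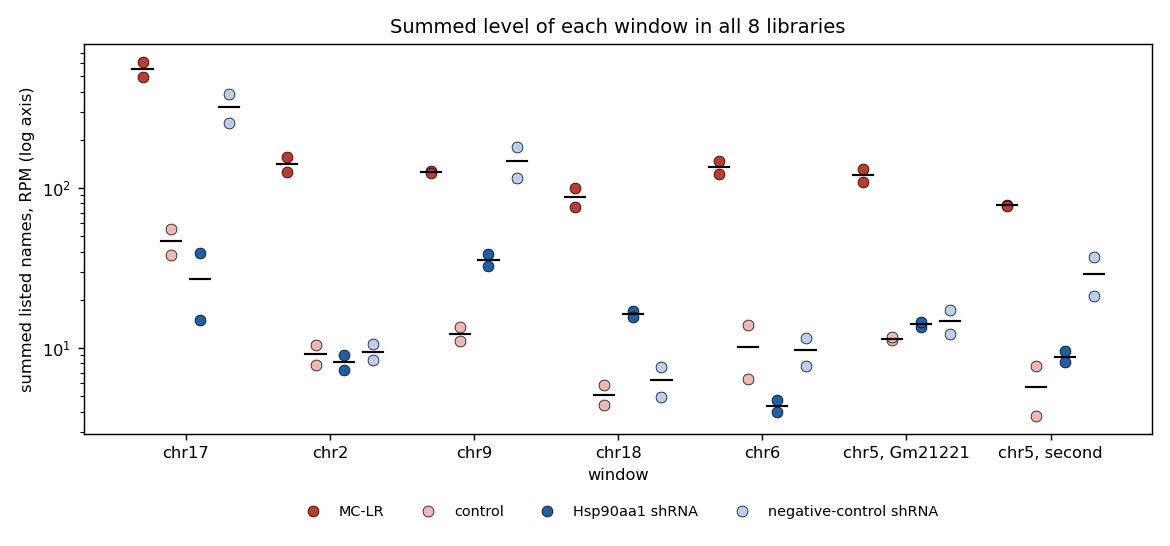
Summed RPM of the listed window names, on a log axis, for each window in all 8 libraries, with a point per library and a line at the mean of each group. The MC-LR and control sums rest on other names than the shRNA sums, so heights are comparable only within a pair of groups. In every window both MC-LR libraries lie above both control libraries, while the Hsp90aa1 shRNA libraries lie above their negative control only in the chr18 window.

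Over all 7 windows the names of the MC-LR table summed to 1355 and 1132 RPM with MC-LR against 82.5 and 118 RPM in control, 12.4-fold higher in the means. As a share of all listed levels this was 1.09% and 0.965% with MC-LR, against 0.0217% and 0.0335% in control. Groups did not overlap for any of the 133 names, 130 higher and 3 lower; 2.34% of all listed names were higher without overlap and 92.6% lower. Given as a description, limma called 130 of them higher and 1 lower, beside 2.37% and 73.1% of all tested names. The ratios of the 7 windows were close to each other, 10.3-fold in chr9 to 17.2-fold in chr18. Plus strand names together were 12.5-fold and minus strand names 12.2-fold higher. Apart from a name at 0.89, no listed name higher with MC-LR had a log2 ratio under 3.36. The likeness of these ratios was thus largely set by the listing. The fold of single names rests on few control reads: the median name had 7 reads in both control libraries together, and 30 names had 3 or fewer.

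The exceptions were short. All 119 names of 26 nt or more were higher with MC-LR, as were 11 of the 14 shorter ones. Higher names were more often long outside the windows as well, where 1.95% of 8517 names of 26 nt or more and 0.396% of 4800 shorter names were higher. The 3 lower names were piR-mmu-50430680 (22 nt, chr17), piR-mmu-49877773 (21 nt, chr9) and piR-mmu-50777044 (21 nt, Gm21221 window). piR-mmu-50430680 had 2.69 and 3.81 RPM with MC-LR against 7.31 and 4.84 RPM in control. piR-mmu-49877773 had 1.01 and 1.22 RPM with MC-LR against 5.06 and 2.82 RPM in control, and piR-mmu-50777044 0.505 and 1.52 RPM against 3.96 and 1.61 RPM. The groups are separate but close, and nearest for piR-mmu-50777044. The limit of 26 nt was set after the lengths were seen. A short name could also be higher: piR-mmu-10703229, of 22 nt in Gm49794, had 9.09 and 7.77 RPM with MC-LR against 0.137 and 0.202 RPM in control. With 105 reads against 3, the ratio of pooled reads per total was 54.9 (95% counting interval 18.3 to 270.3).

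The Hsp90aa1 shRNA comparison was then fitted on libraries that had not chosen the windows. Of the 72 names listed, 69 reached a mean of 1 RPM in a group and were tested. At an adjusted p below 0.05 in limma, 12 rose, 56 fell and 1 did not pass. The table lists no name with a log2 ratio between −0.95 and 2.24 in this same contrast, so nearly all listed names pass. The adjusted p-values therefore cannot decide whether the windows moved, and the counts describe listed names only. Without Hsp90aa1 shRNA B the same 12 rose and 32 fell. Of all tested names 0.219% rose (37 of 16859) and 99.5% fell. Among tested window names the shares were 17.4% and 81.2%, the first above and the second below the background. Groups did not overlap for any of the 72 names, as for 99.8% (lower) and 0.213% (higher) of the table. The median log2 fold change of the tested window names was −1.23, beside −1.66 over all tested names. With 2 libraries against 2 an exact permutation test of a single sum cannot go below p = 0.33, so the sums carry no test.

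The rising names shared length and strand. All 12 were 28 to 31 nt long. Of them, 11 lay on the window strand and 1, piR-mmu-182730, in the gap of the chr6 window. No other name of 26 nt or more is listed on the window strand in the shRNA table. That table leaves out small differences, and of the 119 long window names of the MC-LR table it lists 1, piR-mmu-63450141, so the count says nothing of the long fragments it does not list. The 6 long names on the opposite strand were all lower, 5 of them past the threshold. All 54 names under 26 nt were lower too, and the 51 of them that were tested fell, on either strand. Counted from 24 nt, 11 of 15 window strand names rose, and counted from 28 nt 11 of 11. Outside the windows too nearly all higher names were long: 24 of 9703 names of 26 nt or more were higher (0.247%), and 1 of 7600 shorter names. These calls of a fall depend on the scale: scaled within the list by its median, 1 window name fell and the same 12 rose. That scale sets the middle of the list near 0. As nearly all listed names were lower, the loss of these calls was largely set by it.

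**Figure D3:**
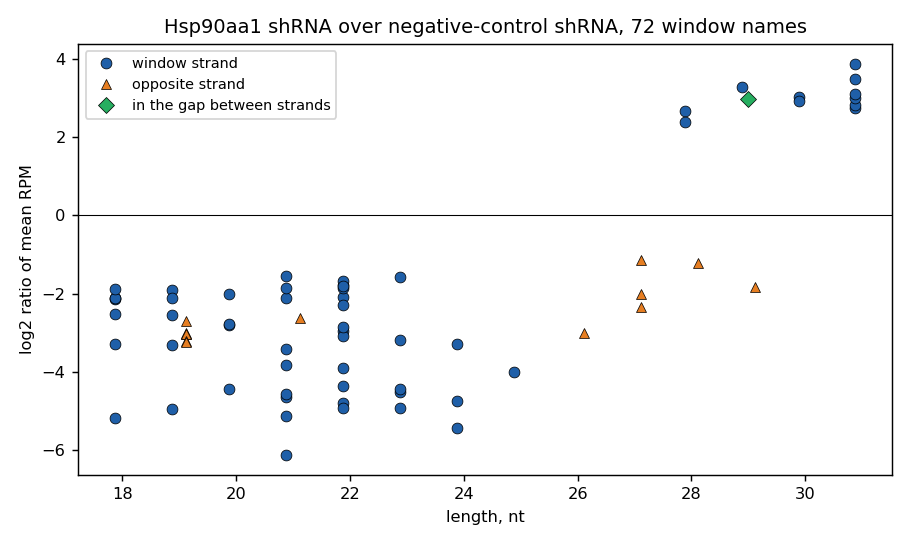
Length in nt (horizontal axis) against the log2 ratio of mean RPM, Hsp90aa1 shRNA over negative-control shRNA (vertical axis), for the 72 window names of the shRNA table. Blue circles are on the window strand, orange triangles on the opposite strand and the green diamond in the gap between strands. All points of 28 to 31 nt on the window strand are above 0, between 2.39 and 3.88, and all orange triangles are below 0.

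Summed over the 11 long window strand names, the level was 48.6 and 57.7 RPM with the Hsp90aa1 shRNA against 7.62 and 7.47 RPM with the negative-control shRNA, 7.04-fold higher, or 2.50-fold when long is counted from 24 nt. The 6 long opposite strand names summed to 16.8 and 16.8 RPM with the Hsp90aa1 shRNA against 49.6 and 39.8 RPM with the negative-control shRNA, 2.66-fold lower; scaled within the list this sum was 2.88-fold higher. The short names summed to 62.9 and 19.4 RPM with the Hsp90aa1 shRNA against 371 and 601 RPM with the negative-control shRNA, 11.8-fold lower. The Hsp90aa1 shRNA libraries were alike in the long names and apart in the short ones, with A above B, so the short sum was 25.1-fold lower without A and 7.73-fold lower without B. Together the windows summed to 131 and 97.0 RPM with the Hsp90aa1 shRNA against 428 and 649 RPM with the negative-control shRNA. As a share of all listed levels the order was the reverse, 0.263% and 0.305% against 0.154% and 0.1996%.

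Each window held at least 1 rising name: 3 in chr9, 3 in chr18, 2 in chr2 and 1 in each of the others. The rises were 5.26-fold to 14.7-fold in the means, with log2 fold changes of 1.33 to 1.98 on the log2(RPM + 1) scale, which understates changes of low names, and limma adjusted p of 7.06e-04 to 0.00174. piR-mmu-51220004 was the most abundant of them. piR-mmu-63450141 followed with 8.61 and 7.11 RPM with the Hsp90aa1 shRNA against 1.44 and 1.05 RPM with the negative-control shRNA. The highest fold was that of piR-mmu-56103462, with 1.497 and 2.22 RPM with the Hsp90aa1 shRNA against 0.103 and 0.149 RPM with the negative-control shRNA. The negative-control values are 3 reads in all, and the ratio of pooled reads per total was 14.0 with a 95% counting interval of 4.49 to 70.5. The 12 kept their call under every alternative scale, filter and tool that was run. With a library left out, their log2 fold changes stayed positive. The table lists no higher name with a log2 ratio under 2.24 in these same libraries, so this persistence was largely set by the listing.

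**Figure D4:**
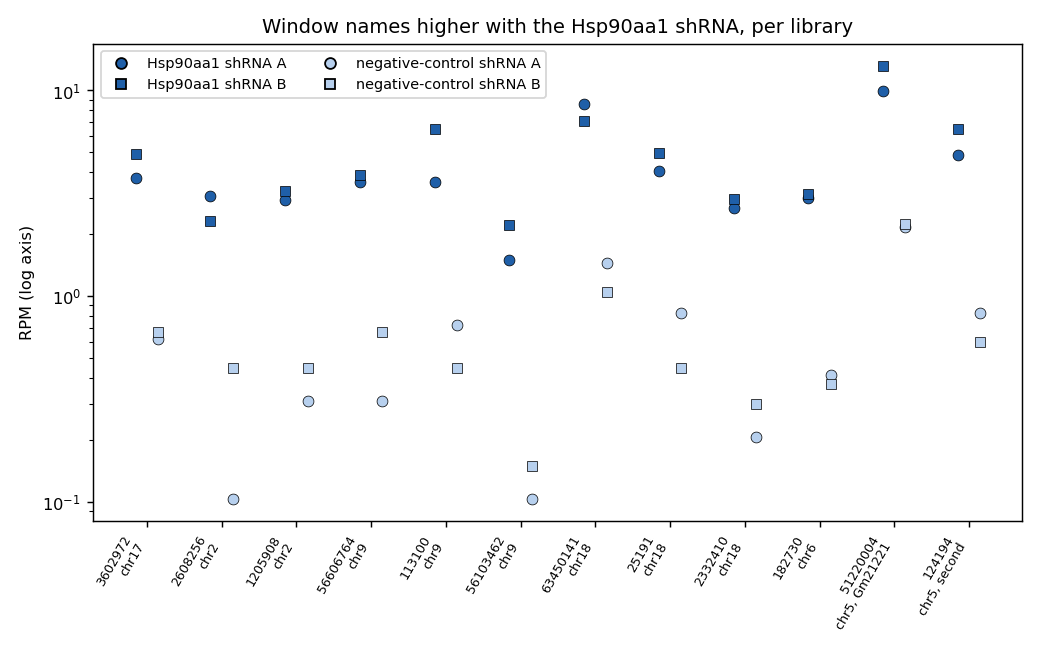
RPM on a log axis of the 12 window names that rose with the Hsp90aa1 shRNA, 1 column per name with its window below, and a symbol for each of the 4 libraries. In each column both dark blue Hsp90aa1 shRNA symbols lie above both light blue negative-control shRNA symbols.

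Only 4 window names are listed in both tables, of 10615 such names in all, and their direction was the same in both. Lower is the common direction: 13135 of 13450 names were lower with MC-LR and 17338 of 17375 with the Hsp90aa1 shRNA. A shared fall is therefore what most names listed in both tables would show. piR-mmu-63450141, of 28 nt on the minus strand of the chr18 window, had 7.74 and 4.57 RPM with MC-LR against 0.342 and 0.202 RPM in control, and rose with the Hsp90aa1 shRNA as given above (log2 fold change 1.98 ± 0.38 SE, limma adjusted p = 0.00115). The control values are 5 reads and 1 read. The others are the short names that were lower with MC-LR, piR-mmu-50430680, piR-mmu-49877773 and piR-mmu-50777044. piR-mmu-50430680 had 0.973 and 0.185 RPM with the Hsp90aa1 shRNA against 15.6 and 19.4 RPM with the negative-control shRNA, and fell by 3.59 on the log2 scale. piR-mmu-49877773 had 0.225 and 0.0923 RPM with the Hsp90aa1 shRNA against 3.71 and 7.40 RPM with the negative-control shRNA, and fell by 2.44. piR-mmu-50777044 had 0.225 and 0.185 RPM against 2.88 and 6.80 RPM, and fell by 2.19. The Hsp90aa1 shRNA values of the last 2 names rest on 1 to 3 reads a library. After median centring within the list, the log2 fold changes of the short names turned above 0 in the MC-LR table, to 0.56, 0.10 and 0.40.

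Ends recurred between names. The 133 names of the MC-LR table had 130 different 5′ ends and fell into 117 sets of overlapping names. The 72 names of the shRNA table had 59 ends and 49 sets, since 8 ends carried up to 4 names each. At the minus strand end chr17:27318600 in Gm49793, piR-mmu-50430680 shared its 5′ end with piR-mmu-45679449, piR-mmu-48956331 and piR-mmu-50709243, so that names of 20, 21, 22 and 23 nt differ only at the 3′ end. All 4 fell with the Hsp90aa1 shRNA, with log2 fold changes of −3.50 to −4.59. Names of such a set may share reads and are not separate measurements. Names on opposite strands rarely overlapped, in 4 pairs over both tables. The chr6 pairs all join piR-mmu-170935 with minus strand names that overlap each other, with 5′ overlaps of 3, 7 and 10 nt. The remaining pair is on chr17. In 2 of the 4 pairs the 5′ ends overlapped by 10 nt: piR-mmu-170935 with piR-mmu-5719079 on chr6, and piR-mmu-62325449 with piR-mmu-9859 on chr17. PIWI slicing leaves that offset between partners, but slicing was not tested here and no background of offsets was counted. The chr6 pair with 10 nt joins a name from each table, and piR-mmu-9859 is 18 nt long.

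The length make-up of the windows followed from these names. In the MC-LR table fragments of 29 to 33 nt made up 71.99% and 73.6% of the window level with MC-LR, against 59.3% and 75.1% in control, groups that overlap. Fragments of 17 to 23 nt made up 0.981% and 1.27% with MC-LR against 20.0% and 8.02% in control, and these come from 4 names. In the shRNA table fragments of 17 to 23 nt made up 47.4% and 19.5% with the Hsp90aa1 shRNA against 83.5% and 90.4% with the negative-control shRNA. Fragments of 29 to 33 nt made up 26.6% and 43.5% with the Hsp90aa1 shRNA against 2.89% and 1.45% with the negative-control shRNA. Among listed names the share of long fragments was thus larger in both Hsp90aa1 shRNA libraries, as a ratio within a library that no scaling changes. It does depend on the listing, which leaves out small differences. Of the 11 listed window names of 29 nt or more 10 were higher, and of the 54 under 26 nt 0 were. The direction of this share is thus largely set by which names are listed, and says nothing of fragments not listed.

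**Figure D5:**
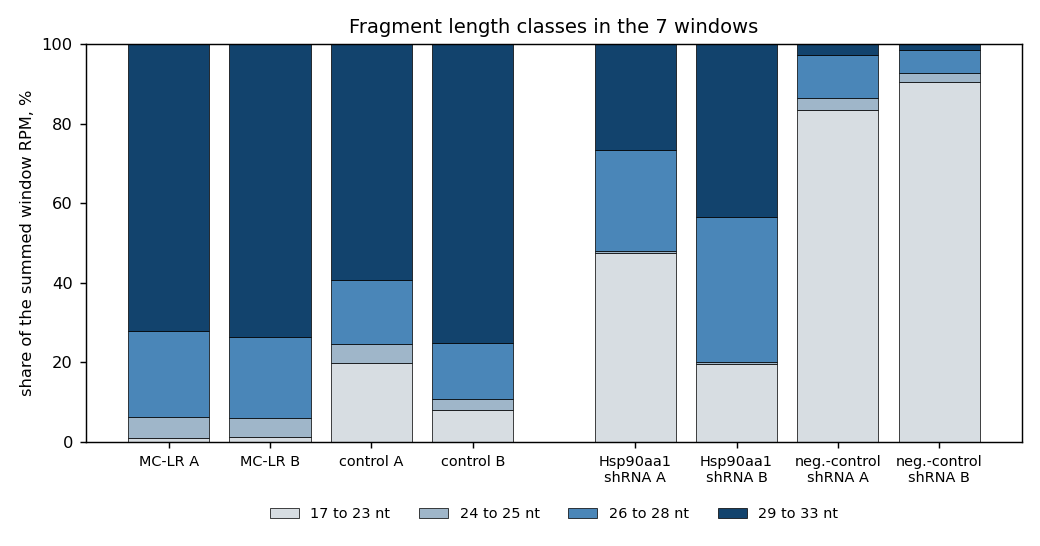
Share of the summed window RPM, in percent, held by fragments of 4 length classes in each of the 8 libraries, in stacked bars that add to 100. In the right block the 17 to 23 nt class is smaller in both Hsp90aa1 shRNA libraries (47.4% and 19.5%) than in both negative-control shRNA libraries (83.5% and 90.4%).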

How the data were processed

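The authors deposited 2 tables of RPM per piRNA locus, each with 4 libraries. Bowtie2 2.2.3, HISAT2 2.1.0, HTSeq 0.6.0 and mm10 are named per the submitters' processing notes; for trimming and the choice of listed loci, the sources used here give nothing. Divided by the smallest value of its library, every deposited RPM value was whole (100% within 0.01), which gave reads and library totals. Intervals and the limit of 3 reads cover counting error only, since reads carry no molecular identifiers. The intervals take no account of the lack of zeros among listed values.

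Names were used once, and reads that fit several loci were listed at each; 126 of 133 and 68 of 72 window names have 1 listed locus. Starts are 0-based in the tables, as 476 plus strand loci then begin at a mature microRNA, against 70 if read as 1-based, and are printed 1-based. limma 3.58.1 (trend and robust) in R 4.3.3 was run on log2(RPM + 1) per whole table, for names that reached a group mean of 1 RPM, with Benjamini-Hochberg adjustment at 0.05 over that table. It was tested on simulated data. edgeR 4.0.16 and DESeq2 1.42.0 on recovered reads, other pseudocounts, scaling within the list and left-out libraries were alternatives. For single names in limma, scaling within the list meant centring each library on its median log2 value. For sums it meant division by the summed RPM of all listed names. With a library left out, the lone one is assumed to vary like the others. Annotation came from GENCODE M21 and RefSeq (GRCm38.p6), in Python 3.11.15 with pandas 2.3.3. Introns were looked up for a chosen list of genes only.

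Named fragments were, per window and table, the 2 with the highest mean, the 2 highest in exons of Gm49794 and of Gm21221, the 3 highest and 3 lowest log2 fold changes of the shRNA comparison, and names on the less common side of 0; other names were chosen after their values were seen. The windows, members and lists were chosen with earlier results of these data known.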

Additional observations from a re-analysis of the deposited data

How the results depend on the processing

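The 12 names that rose with the Hsp90aa1 shRNA kept their call under every scale, filter and tool run. Most falls were called per library total and lost when scaled within the list. Such scaling sets the common change of the list near 0, and 17338 of 17375 listed names were lower. The loss of the falls was thus largely set by that scaling. With a library left out, the log2 fold changes of the 12 stayed positive. The listing of large differences alone largely set this persistence. Values for MC-LR are a description, since that contrast chose the windows. Lower window names with the Hsp90aa1 shRNA numbered 1 after median centring within the list, 0 with edgeR's TMM factors, 1 with DESeq2, and 32 to 54 with a library left out; with MC-LR they numbered 0, 0 and 0, 2 with edgeR on library totals, and 0 to 3 with a library left out.

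The median log2 fold change with the Hsp90aa1 shRNA was −2.28 with a pseudocount of 0.1 RPM, −0.51 with 5 RPM, −2.44 with edgeR on library totals, 0.61 after median centring, 0.30 with TMM factors and 0.31 with DESeq2; with a library left out it was −1.61 to −0.98. With MC-LR it was 3.73, 1.10, 4.07, 3.72, 5.70 and 5.83 in the same order, and 2.32 to 2.52 with a library left out. Over all names, list scaling moved the median from −1.17 (MC-LR) and −1.66 (Hsp90aa1 shRNA) to 0.00 and −0.03 with TMM factors.

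Scaled within the list, the ratio of all window sums was 37.2 with MC-LR and turned to 1.61 with the Hsp90aa1 shRNA, against 12.4 and 0.212 per library total. Among shRNA names the long window strand sum then had a ratio of 55.3, the short sum 0.588 and the long opposite strand sum 2.88, which is a turn of direction. By window the sum turned to 6.41 (chr2), 1.85 (chr9), 3.46 (chr6), 7.53 (Gm21221 window) and 2.35 (second chr5 window). Counted from 24 nt, the long window strand ratio was 2.50, a setting chosen after the data were seen. With the most abundant name of each overlapping set only, the long opposite strand ratio was 0.253 and that of the Gm21221 window 1.14, which turned, as it did without negative-control shRNA B (1.15; 0.813 without A). With a library left out, the ratio of all window sums ranged from 10.5 to 15.1 with MC-LR and from 0.176 to 0.267 with the Hsp90aa1 shRNA, that of long window strand names from 6.44 to 7.65, of short names from 0.0399 to 0.129 and of long opposite strand names from 0.339 to 0.422.

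Of named fragments, these turned above 0 in the MC-LR table after median centring, with TMM factors and with DESeq2: piR-mmu-50430680 to 0.56, 0.73 and 0.78, and piR-mmu-50777044 to 0.40, 0.14 and 0.21; piR-mmu-49877773 turned with median centring, to 0.10. In the shRNA table they were piR-mmu-2148315 (0.47, 1.04 and 1.11), piR-mmu-48710840 (0.70, 1.68 and 1.76), piR-mmu-49305627 (0.57, 0.86 and 0.90) and, with median centring, piR-mmu-49686503 (0.25). The cause of none of these changes was tested beyond the scale itself.

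With the replicate letter as a block the counts were 12 higher and 55 lower with the Hsp90aa1 shRNA, and 130 higher and 1 lower with MC-LR. The labels do not say whether a letter pairs libraries of different groups. Deviations of libraries of the same letter correlated at −0.61 in the shRNA table and 0.07 in the MC-LR table. With 2 libraries per group, this cannot settle whether they are paired. Depth limits the names higher with MC-LR, of which 30 of 130 had 3 reads or fewer in control, and the lower names with the Hsp90aa1 shRNA, of which 7 had 3 reads or fewer in that group.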
